A study of Canis lupus familiaris with 15 samples.

Results

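The miRNAs described here are those encoded in the imprinted Dlk1-Dio3 region, a long stretch of mammalian genome that holds a large group of miRNA genes between the protein-coding genes DLK1 and DIO3. Members were taken from a list of 43 miRNA names. Of these, 34 had a hairpin in the deposited tables and 33 had 1 or more mature counts, out of 263 miRNAs with mature counts in the whole series. The 9 names with no row in the tables used here were mir-154, mir-412, mir-541, mir-654, mir-655, mir-656, mir-665, mir-668 and mir-889, and mir-300 had a hairpin but no mature count. The libraries hold small RNA of 15 dog spleens, of which 5 carried hemangiosarcoma, a malignant tumor of blood vessel endothelium, 5 carried nodular hyperplasia, a non-neoplastic mass, and 5 were normal. Each spleen gave 1 library, labelled as a biological replicate, and no treatment or genotype is labelled. Both kinds of mass were taken when client-owned dogs had the spleen removed, whereas the normal spleens were archived frozen tissue, so source and disease cannot be told apart in comparisons with normal spleen. The tissue is bulk, and fewer cells of a type and less RNA per cell cannot be told apart.

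In the mammals studied, the protein-coding genes of this region are expressed from the paternal chromosome, and the miRNAs, snoRNAs and long noncoding RNAs between them from the maternal chromosome. The miRNAs lie in a smaller group near RTL1, a gene derived from a retrotransposon, and in a larger group farther on, and they are thought to be cut from long shared transcripts. They are known for expression in embryo, placenta and brain and for low levels in most adult tissues. The counts used here do not separate the parental alleles.

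The RefSeq gene table of the dog assembly UU_Cfam_GSD_1.0 placed 35 of the 43 listed names, all on a single chromosome, and 32 of the 33 members with mature counts. The exception was mir-369, which this table did not name. Between the outermost members stood 39 miRNA genes and 53 snoRNA genes, and only 2 of the miRNA genes were not on the list, mir-3958 and mir-1185, neither of which had a row in the count tables. The order began with mir-493, mir-665 (which had no row in the count tables), mir-433, mir-127, mir-432, mir-136 and mir-370. It went on with mir-379, mir-411 and mir-299, and ended with mir-377, mir-409 and mir-410. The 3 hairpins of mir-376a stood apart in this order. Their mature counts were 75, 74 and 70, none of them assigned uniquely, and they were summed to 219. Related names such as mir-376a, mir-376b and mir-376c, or mir-487a and mir-487b, may share reads.

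Each library of normal spleen held 4374133 to 7548062 mature counts, with 3768867 to 6073162 in nodular hyperplasia and 3040736 to 6562849 in hemangiosarcoma. Levels are given as CPM, counts per 1000000 of a library total scaled by the TMM factor, which was 0.49 to 1.05 in normal spleen, 0.78 to 1.62 in nodular hyperplasia and 0.76 to 1.58 in hemangiosarcoma. A floor of 3 counts corresponded to 0.392 to 0.990 CPM, so members under about 1 CPM rest on a few reads in each library. The floor covers counting error only. Hemangiosarcoma replicate 3 stood apart in markers fixed for other tissues: the 4 pancreas miRNAs, mir-375, mir-216a, mir-216b and mir-217, summed to 3518 CPM there and to 0.804 to 16.0 CPM in the other 14 libraries. Values without that library are given below for the sum, the median and abundant members.

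The members made up a small and very uneven part of the splenic miRNAs. Their summed level ranged from 33 CPM to 2298 CPM over the 15 libraries, and both extremes were nodular hyperplasia. In normal spleen replicates 1 to 5 the sum was 367, 518, 597, 172 and 209.8 CPM (373 ± 186, SD, n = 5). In nodular hyperplasia it was 810.0, 774, 33, 202 and 2298 CPM (823 ± 893, SD, n = 5). In hemangiosarcoma it was 121, 109.9, 520.0, 97.8 and 126 CPM (195 ± 182, SD, n = 5). Nodular hyperplasia replicates 1, 2 and 5 lay above every other library, replicate 4 lay among the normal spleens, and replicate 3 lay below all 14 others. The highest library was 69.5 times the lowest within nodular hyperplasia, against 3.48 times within normal spleen and 5.32 times within hemangiosarcoma. Hemangiosarcoma replicates 1, 2, 4 and 5 lay between 97.8 and 126 CPM, below the lowest normal spleen at 172 CPM (114 ± 12.5 CPM, SD, n = 4), and hemangiosarcoma replicate 3 lay inside the range of normal spleen. As an unscaled share of mature counts, the members took 0.0128% to 0.0575% in normal spleen, 0.00435% to 0.289% in nodular hyperplasia and 0.00916% to 0.0444% in hemangiosarcoma. On that unscaled share only hemangiosarcoma replicate 1 (0.00916%) lay below the lowest normal spleen, replicate 4 (0.0128%), so the separation of 4 tumors from normal spleen depends on the TMM factors.

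**Figure D1:**
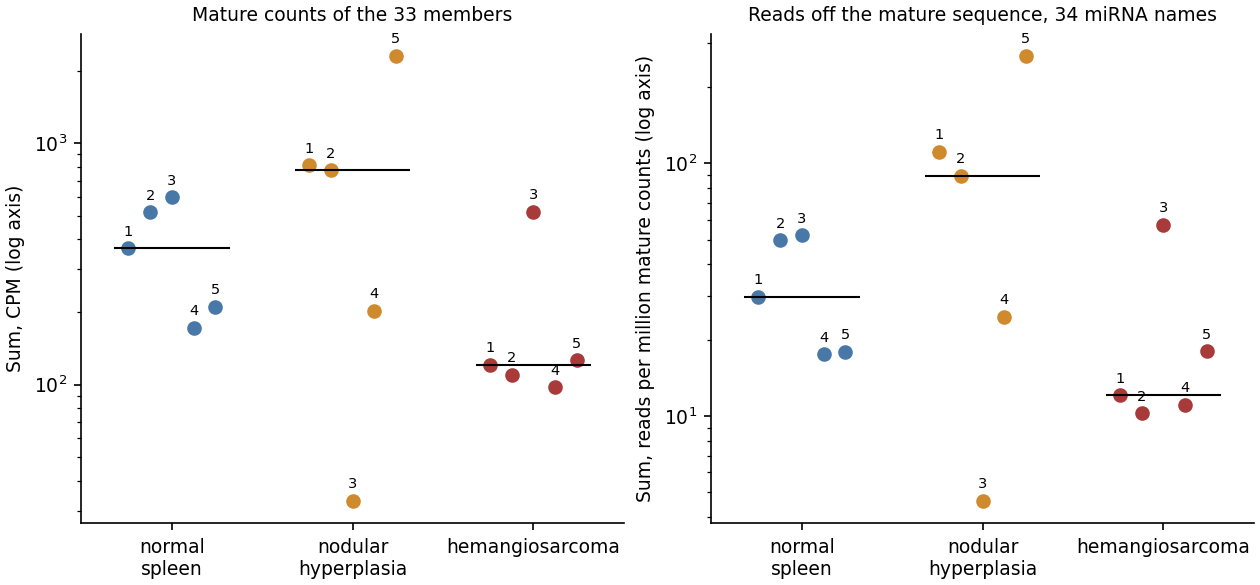
Summed level of the Dlk1-Dio3 miRNAs in each library (points, numbered by replicate; lines: group medians; log axes), as CPM of mature counts at left and as CPM of reads off the annotated mature sequence at right, scaled by mature counts. In both, nodular hyperplasia replicate 5 is highest (2298 CPM and 266 CPM) and replicate 3 is lowest (33 CPM and 4.63 CPM).

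The reads of these hairpins that fell off the annotated mature sequence were not used to choose or score the members, and their sum followed a like order. Scaled by mature counts, it was 17.6 to 52.0 CPM in normal spleen, 4.63 to 266 in nodular hyperplasia and 10.3 to 57.2 in hemangiosarcoma. Nodular hyperplasia replicates 5, 1 and 2 again had the 3 highest values (266, 111 and 89.6 CPM), and hemangiosarcoma replicate 3 had the highest value of its group (57.2 CPM).

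Other lists were read in the same libraries. The 7 of 7 lymphoid miRNAs measured summed to 19995 to 29356 CPM in normal spleen, 20899.6 to 38407 CPM in nodular hyperplasia and 7419 to 17825 CPM in hemangiosarcoma, and nodular hyperplasia replicates 5 and 2, with high sums of the cluster, had the highest values of the 15 (38407 and 35304 CPM). Nodular hyperplasia replicate 1, with the second highest sum of the cluster, had a lymphoid sum of 25447 CPM, inside the range of normal spleen. The lymphoid sum was 24666 CPM in nodular hyperplasia replicate 3, which had the lowest sum of the cluster. The 5 of 6 stromal and smooth muscle miRNAs measured summed to 349804 to 1056896 CPM in normal spleen, 70474 to 214914 CPM in nodular hyperplasia and 84484 to 514827 CPM in hemangiosarcoma, where the library with the lowest sum, replicate 3, had the highest sum of the cluster. The value over 1000000 CPM is normal spleen replicate 1, whose library total was scaled by a TMM factor of 0.49, so CPM is not a share of the library. The 5 of 5 endothelial miRNAs measured summed to 14596 to 50805, 6800.1 to 12832 and 11275 to 95544 CPM in these groups, with the highest value in hemangiosarcoma replicate 3. The 7 of 7 neural miRNAs measured summed to 1411 to 2013, 1291 to 1851 and 1283 to 4089 CPM. The 7 of 8 striated muscle miRNAs measured summed to 5089 to 14575, 699.6 to 2767 and 1044 to 5555 CPM. The myeloid mir-223 was highest in nodular hyperplasia replicate 3, at 552 CPM against 54.3 to 298 CPM elsewhere. No measured marker was at 0 in all libraries, and the part of any of these cell types in the levels of the cluster was not tested.

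A few members carried most of the signal. mir-381, mir-411, mir-127 and mir-379 together held 38527 of the 42387 mature counts of the 33 members over the 15 libraries (90.9%), with 41.9%, 20.2%, 15.1% and 13.7% in that order. The next, mir-409, held 1.54%. A test was made of the 28 members whose counts summed to 10 or more. The 5 that were not tested were mir-377 with 4 counts, mir-539 and mir-544 with 3 each, mir-329a with 2 and mir-496 with 1.

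The most abundant member, mir-381, lies in the distal group. Its level was 157, 259, 312, 84.2 and 103 CPM in normal spleen, 290.2, 272, 11.7, 86.9 and 931 CPM in nodular hyperplasia and 62.7, 38.2, 252, 29.4 and 54.1 CPM in hemangiosarcoma. The groups overlapped, and 4 tumors lay below every normal spleen. For mir-411 the values were 54.1, 85.8, 132, 27.7 and 43.6 CPM in normal spleen, 193, 191, 6.25, 37.6 and 457 CPM in nodular hyperplasia and 13.1, 18.5, 78.2, 13.6 and 18.3 CPM in hemangiosarcoma. Again 4 tumors lay below the lowest normal spleen. Nodular hyperplasia replicates 1, 2 and 5 lay above all tumors, replicate 4 lay among them and replicate 3 lay below them all.

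mir-127, which in mouse is transcribed antisense to Rtl1 and can cut its mRNA, was at 47.5, 69.9, 73.3, 25.5 and 28.4 CPM in normal spleen, 119, 120.0, 6.65, 28.6 and 367 CPM in nodular hyperplasia and 17.3, 19.2, 68.7, 22.9 and 24.0 CPM in hemangiosarcoma. For mir-379, the first gene of the distal group in the RefSeq order, the values were 84.1, 71.0, 41.9, 21.0 and 20.8 CPM in normal spleen, 120.1, 106, 3.83, 32 and 354 CPM in nodular hyperplasia and 14.3, 6.20, 69.2, 15 and 10.8 CPM in hemangiosarcoma. For both, nodular hyperplasia replicate 5 was the highest and replicate 3 the lowest of all 15 libraries. Hemangiosarcoma replicate 3 lay inside the range of normal spleen, and the other 4 tumors lay below every normal spleen. Without TMM factors, as counts per 1000000 mature counts, the tumors below the lowest normal spleen were 3 for mir-381, 1 for mir-411, 1 for mir-127 and 3 for mir-379.

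Members with far fewer counts kept this order of libraries in part. mir-409 was at 1.08 to 6.83 CPM (median 4.67) in normal spleen, 0.806 to 31.8 CPM (median 9.76) in nodular hyperplasia and 3.62 to 14.9 CPM (median 4.28) in hemangiosarcoma. mir-370 was at 0.868 to 2.96 CPM (median 2.64), 0 to 16.0 CPM (median 8.72) and 0.804 to 4.38 CPM (median 0.886) in these groups. mir-369 was at 0.447 to 4.67 CPM (median 1.30), 0 to 11.2 CPM (median 6.41) and 0.804 to 2.61 CPM (median 1.95). Nodular hyperplasia replicate 5 was the highest library for all 3, and replicate 3 was the lowest for all 3, with 4, 0 and 0 counts. Over all 28 tested members, replicate 5 was the highest of the 15 libraries in 25. The exceptions, named after their values were seen, were mir-433 and mir-410, highest in nodular hyperplasia replicate 1, and mir-323, highest in hemangiosarcoma replicate 2. The tested members not given by library had between 10 (mir-376c) and 220 (mir-493) counts in all. Of the 28, 11 had no count in nodular hyperplasia replicate 3 and 10 had none in hemangiosarcoma replicate 4.

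**Figure D2:**
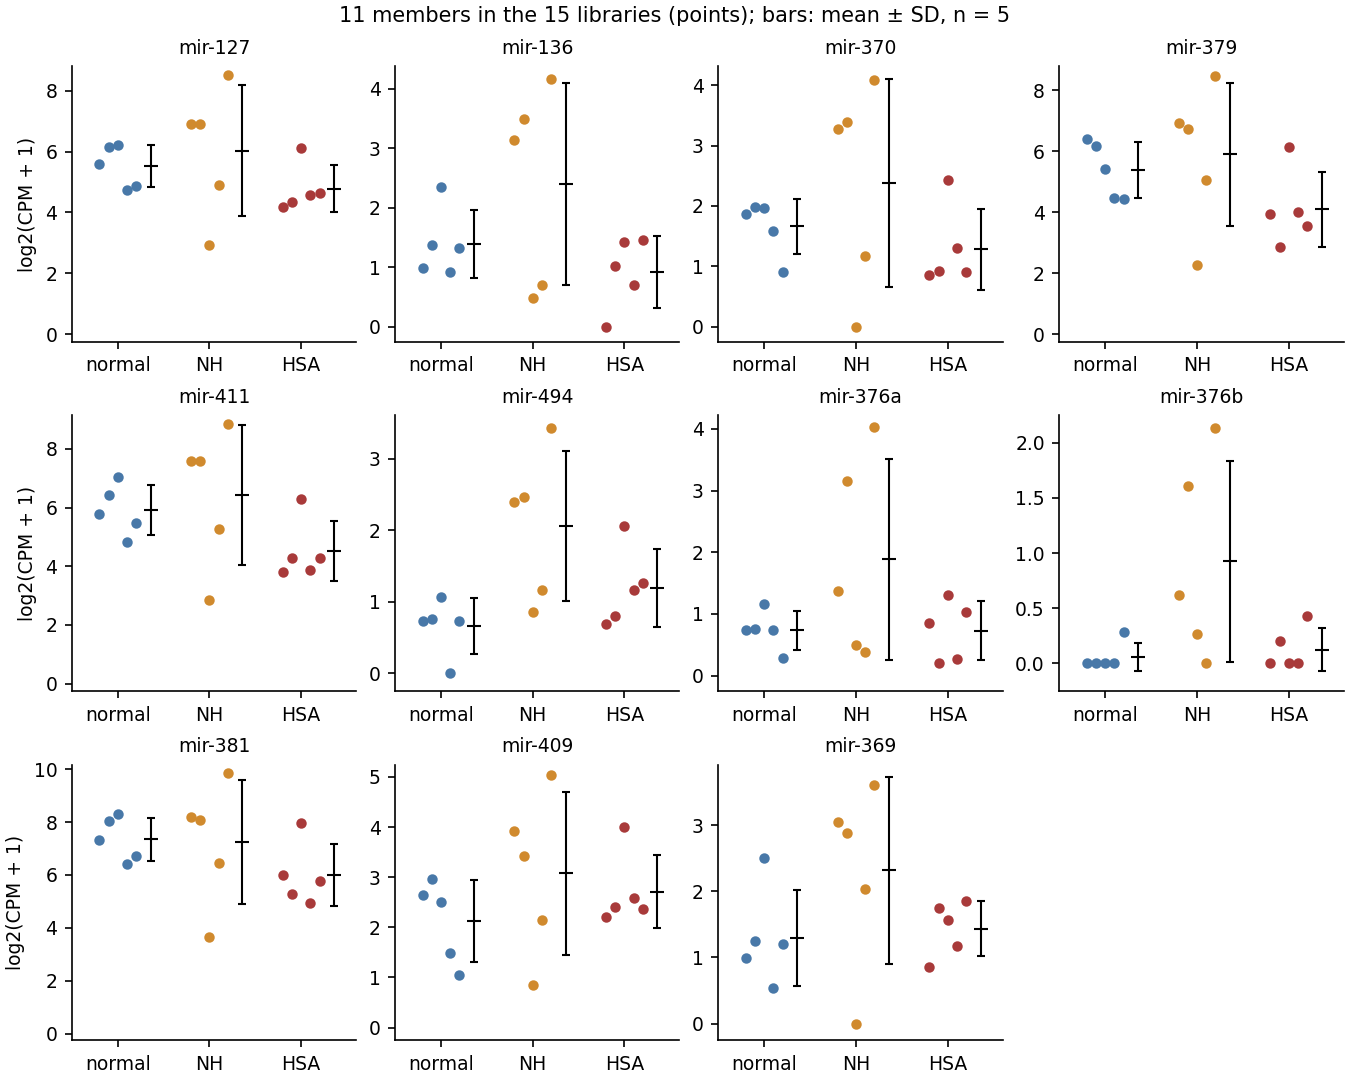
log2(CPM + 1) of 11 members in the 15 libraries (points, in order of replicate; normal: normal spleen, NH: nodular hyperplasia, HSA: hemangiosarcoma), with the mean and SD of each group of 5 beside them. In most panels nodular hyperplasia spans the whole range of the plot, as for mir-381 between 11.7 and 931 CPM.

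Nodular hyperplasia was compared with normal spleen by edgeR's quasi-likelihood test over all 250 miRNAs tested. All 28 members had positive log2 fold changes, with a median of 1.53, against 59.2% positive and a median of 0.23 over all 250. Only 2 members passed an adjusted p of 0.05 (7.14% of the 28), both higher in nodular hyperplasia. Among all 250 miRNAs, 5.60% were called higher by this rule, so the share of members called was near the background. The range over members was from 0.05 for mir-323 to 4.32 for mir-376b, and the median standard error was 0.88. Some members reached the minimum of 10 counts only with their nodular hyperplasia counts. They were mir-376b (1, 44 and 3 counts in normal spleen, nodular hyperplasia and hemangiosarcoma), mir-487a (4, 25 and 5) and mir-376c (3, 5 and 2). The filter therefore favored a higher level in nodular hyperplasia for them, and their signs carry little weight.

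mir-494, of the distal group, was called higher, with a log2 fold change of 2.68, an SE of 0.78 and an edgeR adjusted p of 0.0342. Its values were 0.660, 0.683, 1.10, 0 and 0.651 CPM in normal spleen, 4.27, 4.51, 0.806, 1.24 and 9.81 CPM in nodular hyperplasia and 0.603, 0.738, 3.17, 1.25 and 1.39 CPM in hemangiosarcoma. In CPM, nodular hyperplasia replicates 1, 2, 4 and 5 lay above all normal spleens and replicate 3 lay inside their range. Replicate 4 (1.24 CPM) had 4 mir-494 counts of 4153540 mature counts, and normal spleen replicate 3 (1.10 CPM) had 8 of 7548062. As an unscaled share normal spleen replicate 3 was the higher of the 2, so the place of replicate 4 depends on the TMM factors. The exact two-sided permutation test of log2(CPM + 1) gave p = 0.0159 (0.0794 adjusted over the 250 miRNAs), where the smallest p that 252 orderings allow is 0.00794. In hemangiosarcoma mir-494 differed from normal spleen by 1.12 ± 0.78 (edgeR adjusted p = 0.345) and from nodular hyperplasia by -1.56 ± 0.72 (edgeR adjusted p = 0.136), neither past the threshold.

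mir-376b was close to absent outside nodular hyperplasia. It had 0, 0, 0, 0 and 1 counts in normal spleen, 3, 14, 1, 0 and 26 counts in nodular hyperplasia and 0, 1, 0, 0 and 2 counts in hemangiosarcoma. The call therefore rests on nodular hyperplasia replicates 2 and 5. The fitted log2 fold change against normal spleen was 4.32 ± 1.22 (edgeR adjusted p = 0.0334). From the pooled counts, 44 against 1, the level was 37.0 times that of normal spleen, with a 95% counting interval of 6.30 to 1493 that does not include the spread between spleens. The exact permutation test gave p = 0.0873 (0.216 adjusted over the 250 miRNAs).

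These calls depended on single libraries. No member was called without normal spleen replicate 1, 2 or 4 or without nodular hyperplasia replicate 2 or 5, where 1.20% to 3.60% of all miRNAs were called higher. Without normal spleen replicate 3 or 5 or without nodular hyperplasia replicate 1, 1 member was called. That is 3.57% to 3.70% of the members tested, against 4.02% to 4.42% of all miRNAs called higher. Without nodular hyperplasia replicate 3, 9 of 27 members tested were called, all higher in nodular hyperplasia, among them mir-369, mir-370, mir-380, mir-493, mir-543 and mir-758. That is 33.3% of the members, against 10.9% of all miRNAs called higher in that fit. The median log2 fold change was 0.85 without nodular hyperplasia replicate 5. With library totals in place of TMM factors the median of all 250 miRNAs moved by 0.58 and 9 members were called higher (32.1%), against 18.0% of all 250.

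Against nodular hyperplasia, hemangiosarcoma had negative log2 fold changes in all 28 members. The median log2 fold change was -1.82, against -0.07 over all 250 miRNAs, of which 52.8% were negative. The values ran from -3.31 for mir-376b to -0.22 for mir-323. The limit set by the count filter for mir-376b, mir-487a and mir-376c holds for these signs as well. Only 4 members passed the edgeR threshold, all lower in hemangiosarcoma (14.3% of the 28), against 8.0% of all 250 miRNAs called lower. This comparison and the one before share the nodular hyperplasia libraries, so their opposite signs are not separate observations.

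mir-411 fell by 2.65 ± 0.84 (log2 fold change ± SE), with an edgeR adjusted p of 0.0410 and the values given above. mir-136, which in mouse is antisense to Rtl1 like mir-127, fell by 2.82 ± 0.92 (edgeR adjusted p = 0.0445). Its values were 7.83, 10.3, 0.403, 0.621 and 17.0 CPM in nodular hyperplasia, 0, 1.03, 1.70, 0.626 and 1.74 CPM in hemangiosarcoma and 0.990, 1.59, 4.12, 0.893 and 1.52 CPM in normal spleen. Nodular hyperplasia replicates 1, 2 and 5 lay above all tumors, and replicates 3 and 4 lay inside their range.

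mir-376a, a member of a family whose transcripts are known to be edited by adenosine deamination in human and mouse, fell by 2.82 ± 0.93 (edgeR adjusted p = 0.0480). Its values were 1.60, 7.86, 0.403, 0.310 and 15.3 CPM in nodular hyperplasia, 0.804, 0.148, 1.46, 0.209 and 1.04 CPM in hemangiosarcoma and 0.660, 0.683, 1.24, 0.670 and 0.217 CPM in normal spleen. Only nodular hyperplasia replicates 1, 2 and 5 lay above the tumors. mir-376b fell by 3.31 ± 1.06 (edgeR adjusted p = 0.0424), and by pooled counts (44 against 3) nodular hyperplasia was 13.7 times hemangiosarcoma, with a 95% counting interval of 4.38 to 68.8. The exact permutation test on these 4 members gave p = 0.0952 to 0.214, and 0.313 to 0.462 when adjusted over the 250 miRNAs, so no difference passed by that test.

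Of the other abundant members none passed. mir-381 differed by -1.87 ± 0.82 (edgeR adjusted p = 0.117), mir-127 by -2.08 ± 0.75 (edgeR adjusted p = 0.0573) and mir-379 by -2.42 ± 0.88 (edgeR adjusted p = 0.0586). The count of calls moved with single libraries here as well. It was 0 without normal spleen replicate 1, 2 or 5, nodular hyperplasia replicate 2 or 5 or hemangiosarcoma replicate 1, 2 or 4. It was 1 without normal spleen replicate 3 or 4 or hemangiosarcoma replicate 5, and 2 without nodular hyperplasia replicate 1. These are 3.70% and 7.14% of the members tested, against 5.24% to 5.65% and 7.23% of all miRNAs called lower in the same fits. In the fits with 0 members called, 3.61% to 8.03% of all miRNAs were called lower. The count of members rose to 12 without nodular hyperplasia replicate 3, to 8 without nodular hyperplasia replicate 4 and to 9 without hemangiosarcoma replicate 3, the library with pancreas miRNAs. These are 44.4%, 28.6% and 32.1% of the members tested, against 25 of 248, 25 of 250 and 24 of 247 miRNAs called lower in the same fits. Without hemangiosarcoma replicate 3 the difference passed for mir-381 (-2.63, edgeR adjusted p = 0.0315), mir-379 (-3.25, edgeR adjusted p = 0.0163) and mir-127 (-2.46, edgeR adjusted p = 0.0341), and no longer for mir-376b (-2.97, edgeR adjusted p = 0.0648). The median was -1.19 without nodular hyperplasia replicate 5 and -1.95 without hemangiosarcoma replicate 3.

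Between hemangiosarcoma and normal spleen no member was called, by edgeR (0 of 28 also at an unadjusted p under 0.05), by DESeq2 (0 of the 21 it gave an adjusted p) or by limma voom (0), although 22.4% of all 250 miRNAs were called in either direction. The median log2 fold change was -0.17 against 0.03 over all 250, with 10 members positive and 18 negative, and it was -0.23 without hemangiosarcoma replicate 3. Values ran from -1.45 ± 0.86 for mir-134, a regulator of dendritic spines in rat neurons, to 1.59 ± 0.96 for mir-758. For the abundant members the differences were -1.07 ± 0.81 for mir-381 (edgeR adjusted p = 0.392), -1.28 ± 0.80 for mir-411 (edgeR adjusted p = 0.291), -1.05 ± 0.85 for mir-379 (edgeR adjusted p = 0.431) and -0.69 ± 0.72 for mir-127 (edgeR adjusted p = 0.539). Without hemangiosarcoma replicate 3 they were -1.84 (edgeR adjusted p = 0.104), -1.96 (0.0896), -1.90 (0.109) and -1.07 (0.329) in that order, larger by over 1.5 times for each but still not past the threshold. The smallest permutation p of any member was 0.0159, for mir-134 and mir-758 (0.0902 adjusted over the 250 miRNAs). The sign of the median depended on scaling: with library totals alone it was 0.40, while the median of all 250 miRNAs moved by 0.60, so that the members lay 0.24 below all miRNAs on that scale.

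**Figure D3:**
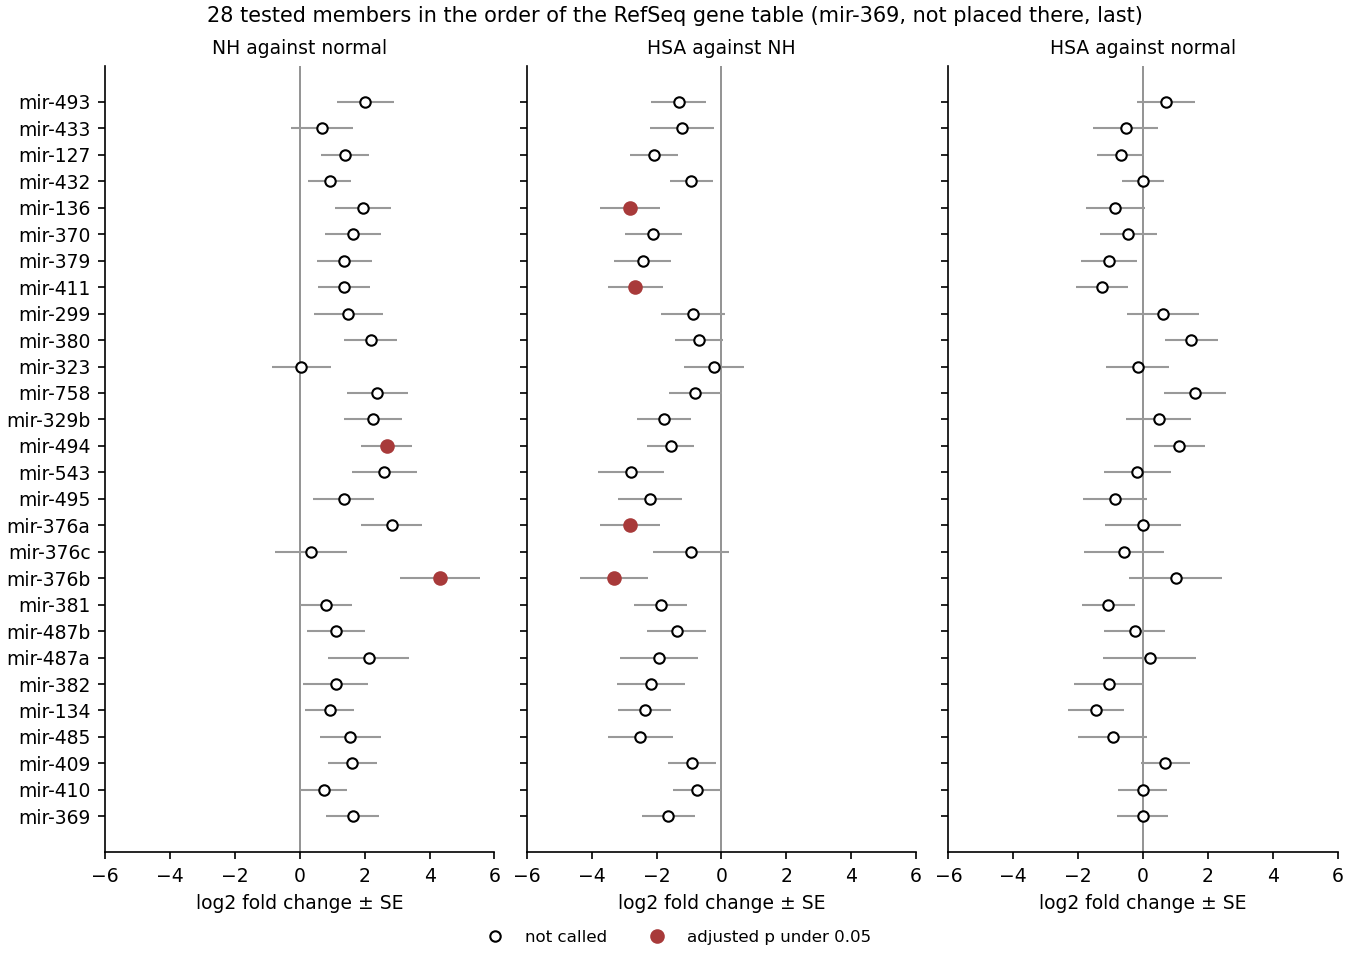
log2 fold change ± SE (edgeR) of the 28 tested members in 3 comparisons, in the order of the RefSeq gene table with mir-369 last (NH: nodular hyperplasia, HSA: hemangiosarcoma, normal: normal spleen). All points are above 0 for nodular hyperplasia against normal spleen and below 0 for hemangiosarcoma against nodular hyperplasia, and filled points are the 2 and 4 members called there.

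The medians were also read by position within the cluster, as a description. Of the tested members, 6 belong to the group that is proximal in the human order, mir-493, mir-433, mir-127, mir-432, mir-136 and mir-370, and 22 to the distal group. Their median log2 fold changes were 1.52 and 1.53 for nodular hyperplasia against normal spleen, -1.70 and -1.82 for hemangiosarcoma against nodular hyperplasia and -0.50 and -0.09 for hemangiosarcoma against normal spleen. As a share of the members' counts, the proximal group took 14.3% to 17.7% in normal spleen, 16.3% to 22.0% in nodular hyperplasia and 15.9% to 27.7% in hemangiosarcoma.

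Members rose and fell together from library to library. Over the 15 libraries the 378 pairs of tested members had a median Pearson r of 0.74 for log2(CPM + 1) (median Spearman rho 0.63), and 377 of the pairs were above 0. Over all 31125 pairs of the 250 tested miRNAs the median was -0.01. Centred on the group means, so that differences between groups did not enter, the median over members was 0.75. Points share a library and its scaling, and genes of a library are not independent, so these values are a description.

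The 4 abundant members had r between 0.94 and 0.98 in their 6 pairs and 0.88 to 0.97 without nodular hyperplasia replicates 3 and 5, the extremes of the sum. Over the 5 libraries of a group their median r was 0.85 in normal spleen, 0.99 in nodular hyperplasia and 0.90 in hemangiosarcoma. The median Spearman rho was 0.75, 0.95 and 0.35 in that order. In hemangiosarcoma replicate 3 was far above the other tumors in all 4 members, so r there rests largely on that library. Over all 28 members the median Pearson r was 0.62 without nodular hyperplasia replicate 5 and 0.60 without both extremes. The 15 members with at least 150 counts had a median of 0.83 and a lowest pair of 0.51. The member least like the rest was mir-376c, with 10 mature counts and a median r of 0.23 with the others, followed by mir-323 with 80 counts and a median r of 0.52.

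**Figure D4:**
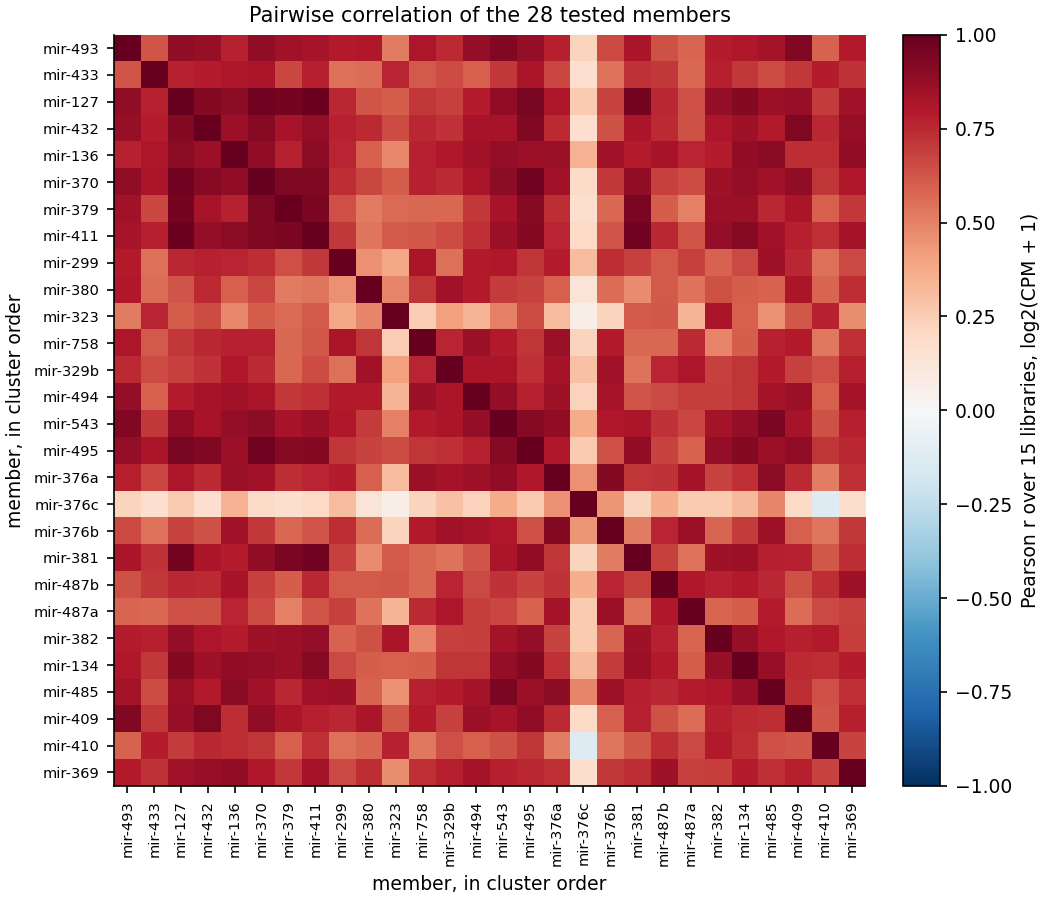
Pearson r of log2(CPM + 1) over the 15 libraries for each pair of the 28 tested members, in cluster order on both axes. All cells are red (above 0) but the pair of mir-376c and mir-410 (r = -0.13), and the pale row and column belong to mir-376c.

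Among the 222 tested miRNAs that are not members, those most like the mean standardized level of the 15 deeper members over the 15 libraries were, by Pearson r, mir-1271 (r = 0.78; rho = 0.75), mir-671 (r = 0.75), mir-218 (r = 0.74), mir-155 (r = 0.64), mir-499 (r = 0.63), mir-34c (r = 0.61), mir-488 (r = 0.60, under 1 CPM in every library) and mir-455 (r = 0.58). Each of the 15 members had r between 0.75 and 0.98 with that mean, of which it is a part. mir-1271 was at 169 to 259 CPM in normal spleen, 200.5 to 430.2 CPM in nodular hyperplasia and 121 to 338 CPM in hemangiosarcoma, a far narrower span than that of the cluster. Its highest libraries were nodular hyperplasia replicate 5 (430.2 CPM) and hemangiosarcoma replicate 3 (338 CPM). mir-155, which is abundant in activated lymphocytes and stands on the lymphoid list, was at 1311 to 5379 CPM in nodular hyperplasia, with its highest values in replicates 5, 2 and 1 (5379, 3913 and 2765 CPM), and at 477 to 1001 CPM in hemangiosarcoma.

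The make-up of the cluster also differed between libraries, in ratios that no scaling between libraries can change. All ratios share the mir-381 count as denominator, so they are not separate observations. Against normal spleen, the log2 fold change of mir-381 was 0.80 in nodular hyperplasia, where the median of the members was 1.53. In hemangiosarcoma it was -1.07, where the median was -0.17. A lower mir-381 alone would raise every ratio, and its part in them was not tested. As a percentage of the mir-381 count in the same library, mir-494 was 0% to 0.632% in normal spleen, 1.05% to 6.90% in nodular hyperplasia and 0.962% to 4.26% in hemangiosarcoma. All 10 masses lay above all 5 normal spleens, on 0 to 8 mir-494 counts in each normal spleen. mir-409 was 1.05% to 3.35% of mir-381 in normal spleen, 3.41% to 6.90% in nodular hyperplasia and 5.77% to 17.0% in hemangiosarcoma, again with no overlap between masses and normal spleen. The margin was narrow between nodular hyperplasia replicate 5 (3.41%) and normal spleen replicate 1 (3.35%, on 16 mir-409 counts). Nodular hyperplasia replicate 3, at 6.90%, rests on 4 mir-409 counts. mir-127 was 23.5% to 30.2% of mir-381 in normal spleen, 32.9% to 56.9% in nodular hyperplasia and 27.3% to 78.0% in hemangiosarcoma, where the last range overlaps that of normal spleen. mir-379 was 13.4% to 53.5%, 32.8% to 41.4% and 16.2% to 51.1% in these groups, which overlapped. These 4 were among 10 such ratios computed, they were singled out after their values were seen and they were not tested. Of the 10, 4 did not overlap between nodular hyperplasia and normal spleen (mir-127, mir-409, mir-411 and mir-494), and 2 of these, mir-409 and mir-494, did not overlap between hemangiosarcoma and normal spleen either. Ratios of other miRNAs were not computed, so these counts have no background share beside them and are a description.

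Reads that reached the hairpins fell in member-specific places. Of the 34 hairpin names, 11 had mature reads on the 5' arm, 22 on the 3' arm and none on both. The counts do not show whether both arms of a hairpin were annotated as mature. Reads of an arm without that annotation would count as off the mature sequence, so these numbers do not measure arm use. For 7 of the 32 members with at least 10 hairpin reads (21.9%), over 50% of reads fell off the annotated mature sequence, against 18.1% of all 260 such miRNAs. They were mir-300 (all 610 reads), mir-376c (96.4% of 274), mir-299 (94.0% of 800), mir-377 (91.5% of 47), mir-544 (86.4% of 22), mir-539 (81.2% of 16) and mir-136 (74.4% of 1279). Mature counts therefore leave out most reads of these hairpins.

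Of these hairpins, mir-300 was read by library. With no mature count, it had 21, 46, 46, 12 and 12 hairpin reads in normal spleen, 59, 69, 1, 6 and 267 in nodular hyperplasia and 9, 7, 42, 4 and 9 in hemangiosarcoma, before any scaling. It was again highest in nodular hyperplasia replicate 5, lowest in replicate 3 and highest among tumors in replicate 3. In a fit of all hairpin reads, mir-376c, not called on its 10 mature counts, fell by 2.76 ± 0.80 in log2 fold change between nodular hyperplasia and hemangiosarcoma (edgeR adjusted p = 0.0266). In the same fit mir-300 differed by -1.84 ± 0.94 (edgeR adjusted p = 0.165). The members called lower there were 4 of 32 (12.5%), mir-136, mir-376b, mir-376c and mir-411, against 6.54% of all 260 miRNAs.

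**Figure D5:**
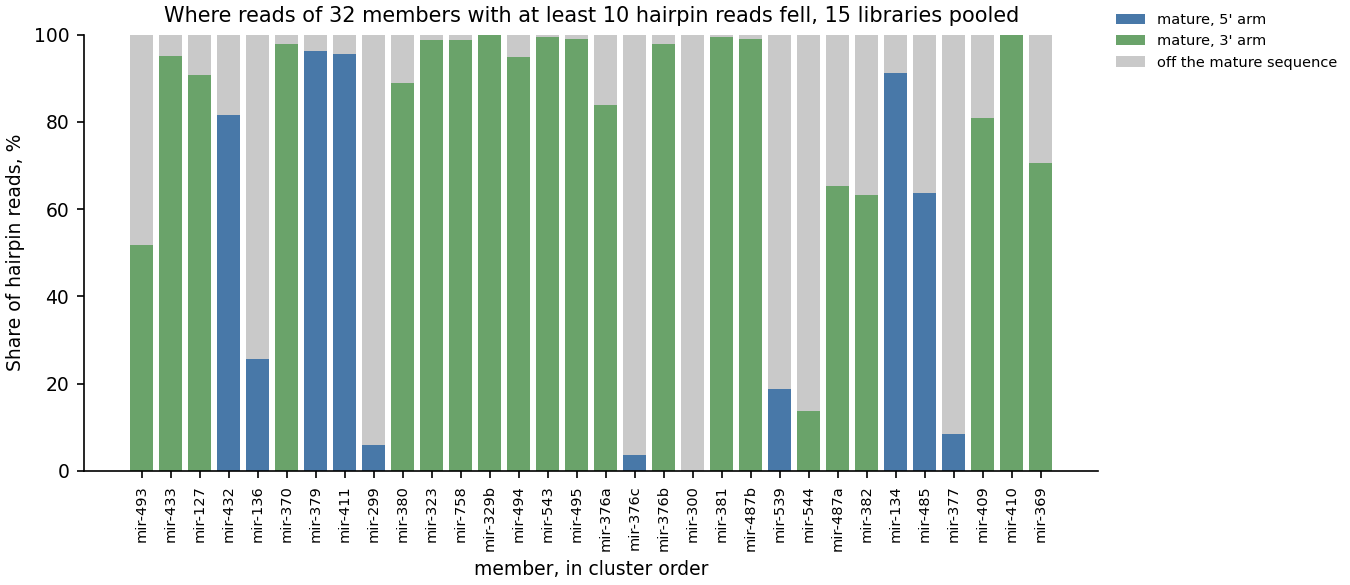
Share of hairpin reads (%, 15 libraries pooled) on the mature 5' sequence, on the mature 3' sequence and in other places of the hairpin, for the 32 members with at least 10 hairpin reads in cluster order. The grey part, other places, is the whole bar for mir-300, 96.4% for mir-376c and 0.504% for mir-381. Other places can include an arm that was not annotated as mature.

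Reads on the mature sequence were also divided by the authors into exact matches and others, which differ from the annotated sequence in length or bases. Exact matches made up a median of 27.2% over the 28 tested members and also over all 250 miRNAs. They were 0% for mir-369, mir-409 and mir-329b, 1.59% for mir-494, 65.1% for mir-370 and 71.4% for mir-410. Only mir-381, mir-411, mir-127 and mir-379 had 10 or more mature counts in every library, and their exact share was not used to choose them. Nodular hyperplasia replicate 3, the library with the lowest level, lay outside the range of the other 4 nodular hyperplasia libraries in all 4 members, and whether the share moves with level was not tested.

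For mir-411 the exact share was 23.8%, 15.1%, 22.4%, 17.7% and 16.9% in normal spleen, 27.4%, 28.3%, 32.3%, 27.3% and 29.4% in nodular hyperplasia and 27.7%, 29.6%, 31.8%, 29.2% and 30.5% in hemangiosarcoma, so every mass lay above every normal spleen. For mir-127 it was 18.2% to 26.0% in normal spleen, 12.0% to 27.3% in nodular hyperplasia and 30.9% to 44.6% in hemangiosarcoma, so every tumor lay above the other 10 libraries. For mir-381 it was 56.2% to 64.3% in normal spleen and 48.9% to 55.6% in hemangiosarcoma, without overlap, and 38.5% to 42.9% in 4 nodular hyperplasia libraries with 62.1% in replicate 3, which had 58 mature counts.

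For mir-379 the exact share was 47.5% to 59.6%, 31.6% to 53.0% and 53.2% to 64.8% in these groups. In counts of members without overlap, 3 of 4 did not overlap between hemangiosarcoma and normal spleen, against 8.48% of 165 miRNAs with 10 or more counts in every library, 2 of 4 did not overlap between hemangiosarcoma and nodular hyperplasia, against 6.06%, and 1 of 4 did not between nodular hyperplasia and normal spleen, against 19.4%. With 4 members these counts are a description. The share of hairpin reads off the mature sequence over all miRNAs was 4.83% to 8.57% in normal spleen, 5.37% to 10.4% in nodular hyperplasia and 7.86% to 22.8% in hemangiosarcoma, and its part in the exact shares was not tested.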

How the data were processed

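The authors extracted RNA from frozen spleen, prepared libraries with the NEBNext Small RNA kit, checked reads with FastQC, trimmed adapters, removed reads under 15 nucleotides and counted reads on miRBase release 20 hairpins in CLCbio. The submitters' notes name canFam3, and a version of either tool is not given in the sources used here. Each deposited table holds raw counts for 1 library, without normalization. The column of expression values holds only 5' arm reads and was not used. Here Mature 5' and Mature 3' counts were added and copies with suffix -1, -2 or -3 summed. Members, lists and the rule for named miRNAs were chosen with earlier results of these data known.

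The 250 miRNAs with a sum of 10 or more counts entered a fit in edgeR 4.0.16 (R 4.3.3; TMM, quasi-likelihood test, all 3 groups in 1 fit), adjusted by Benjamini-Hochberg within each comparison, threshold 0.05. Each standard error is |log2 fold change| divided by the root of its F. Exact permutation tests and correlations used log2(CPM + 1). Values per library are given for members called in any comparison and the 8 with the highest mean CPM; the 8 most similar other miRNAs are named. The edgeR step was tested on simulated data. Alternatives were other scalings and filters, DESeq2 1.42.0, limma voom 3.58.1, exact or all hairpin reads, 2 groups only, a replicate block and leaving out each library. Leaving out nodular hyperplasia replicates 3 and 5 together was chosen after seeing the data. No libraries of a group were copies (30 pairs, chi-square at least 746.0 per degree of freedom). Tables were made in scipy 1.17.1, pandas 2.3.3 and numpy 2.4.6 under Python 3.11.15, and figures in matplotlib 3.10.9. No sequences are printed.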

Additional observations from a re-analysis of the deposited data

Results flagged for a closer look

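Within groups of 5 libraries, the highest or lowest value of 11 members and of their sum was compared with its nearest neighbour as a share of the range, and values past a critical value of 0.71 are listed. Of 36 groups of values, 10 had such a value, where chance alone gives about 1 in 20 if the values are normally distributed. The values were CPM without a log and their distribution was not checked, so that rate is only a guide. The 10 are not independent since members move together. Hemangiosarcoma replicate 3 gave 7 of them, as the highest tumor: the sum of the members (520.0 CPM against 126 CPM in the next), mir-381 (252 against 62.7 CPM), mir-411 (78.2 against 18.5 CPM), mir-379 (69.2 against 15 CPM), mir-127 (68.7 against 24.0 CPM), mir-409 (14.9 against 5.00 CPM) and mir-370 (4.38 against 1.46 CPM). In this library pancreas miRNAs summed to 3518 CPM and endothelial miRNAs to 95544 CPM, and their part in these values was not tested. Normal spleen replicate 3 was highest of its group for mir-136 (4.12 against 1.59 CPM) and mir-369 (4.67 against 1.37 CPM). Normal spleen replicate 5 held the only mir-376b count of its group (0.217 CPM). No value of nodular hyperplasia was past the critical value.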

How the results depend on the processing

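The count of members called in hemangiosarcoma against nodular hyperplasia (4 as reported) was 2 with no count filter, 8 with DESeq2 and 0 with limma voom, with exact mature reads and with 2 groups only, and it was 0 to 12 when single libraries were left out. With no count filter these were 2 of 33 members, against 15 of 263 miRNAs called lower. With DESeq2 they were 8 of 27 members with an adjusted p, against 32 of 238 miRNAs. In the fits with 0 members called, the miRNAs called lower were 21 of 250 (limma voom), 11 of 221 (exact mature reads) and 7 of 247 (2 groups only). In nodular hyperplasia against normal spleen (2 as reported) the count of members called was 9 with library totals alone, 1 with limma voom, 0 with exact mature reads and 0 to 9 when single libraries were left out. With library totals and limma voom these are 32.1% and 3.57% of the members, against 18.0% and 5.20% of all miRNAs called higher. With exact mature reads 6.79% of all miRNAs were called higher. Only 21 members were tested in that fit, and mir-494, with 3 exact reads over the 15 libraries, was not among them. The median log2 fold change was 2.21 with library totals and 0.73 with limma voom. In hemangiosarcoma against normal spleen the count of members called was 0 in every alternative run. The median log2 fold change there ranged from -0.58 to 0.40 over the alternatives and from -0.42 to 0.14 when single libraries were left out. The median in hemangiosarcoma against nodular hyperplasia ranged from -2.04 to -1.23 and from -2.05 to -1.19, and that in nodular hyperplasia against normal spleen from 0.85 to 1.82 when single libraries were left out. The median pairwise r (0.74) was 0.80 with library totals, 0.83 for members with at least 150 counts, 0.62 to 0.78 when single libraries were left out and 0.60 without nodular hyperplasia replicates 3 and 5.

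Replicate numbers did not pair the libraries: deviations of libraries with the same number correlated at -0.47 to 0.44, and 3 of 15 correlated best with their own number. With the replicate block, 1 member was called in hemangiosarcoma against nodular hyperplasia and 1 in nodular hyperplasia against normal spleen, mir-376b in both. In each comparison that is 3.57% of the members, against 5.20% of all miRNAs called in the same direction.

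Small differences between hemangiosarcoma and normal spleen changed sign. mir-369 (-0.01 as reported) was 0.51 with library totals, 0.02 with no count filter, 0.13 with at least 150 counts, 0.31 with all hairpin reads, 0.09 with the replicate block, 0.06 with 2 groups only, 0.24 with limma voom and -0.25 to 0.80 when single libraries were left out. mir-376a (0.01) was -0.02 with RLE size factors, -0.64 with exact mature reads, -0.21 with the replicate block, -0.00 with DESeq2, -0.23 with limma voom and -0.21 to 0.36 when single libraries were left out. mir-370 (-0.46) was 0.08 with library totals, and with exact mature reads mir-127 (-0.69) was 0.11 and mir-376b (1.01) was -1.45. In nodular hyperplasia against normal spleen, mir-381 (0.80) was -0.03 with limma voom and -0.15 to 1.10 when single libraries were left out. The cause of these changes was not tested. Members under about 1 CPM rest on a few reads a library, and differences in them were not detectable at this depth unless large.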

Other observations

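Hemangiosarcoma replicate 2 held an unusual mixture of distal members, singled out after the values were seen. mir-410 took 4.57% of the members' counts there (34 of 744, 95% Wilson interval 3.29% to 6.32%), against 0.205% to 1.83% in the other 14 libraries. mir-323 took 2.28% (17 counts, 1.43% to 3.63%), against 0% to 0.520%, and mir-487b took 1.61% (12 counts, 0.925% to 2.80%), against 0% to 0.552%. mir-379, in contrast, took 5.65% of the members' counts in this library, the lowest share of the 15, and the 4 abundant members together took 74.7%, against 82.7% to 93.9% elsewhere. Intervals cover counting error only, and no test was run.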
